A study of Mus musculus with 2 samples.

Results

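The cells described here are a subset of surface-gated hematopoietic stem cells of aged mouse bone marrow that carry transcripts of Ncam2, Ptprm, Kcnb2, Gkn3 and Insm1, genes better known from neurons, endocrine cells and stomach than from blood. They were taken from LSK cells (marrow cells that lack lineage markers and carry Sca-1 and c-Kit, where stem cells and multipotent progenitors are found). Cells entered when 500 or more genes were detected and mitochondrial UMIs stayed below 10% (a UMI, or unique molecular identifier, counts 1 captured molecule). It entered the stem cell gate with a low CD135 and a high CD150 antibody tag, and it became a member when at least 2 of the 5 genes had at least 1 UMI. There were 383 members among 2673 gate cells and 7967 kept cells: 174 in the chelator pool and 209 in the control pool. The other 2290 cells of the gate are called the other gate cells.

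The study compared 2 pools of LSK cells. Mice of the chelator pool had received deferoxamine, an iron chelator, at 50 mg/kg, and mice of the control pool had received the vehicle HBSS. Both regimens started at an age of about 6 months and ran for 13 months, with 7 daily doses repeated every 4 weeks. The sources used here give no genotype, no strain and no number of mice for either pool. RNA and 126 surface tags were counted in the same cells, and a hashtag antibody marked the pool. Each condition is 1 pool, so no test between mice was possible and no p-value is given; all intervals are 95% intervals that cover counting error only. Members were chosen by measured RNA of these same cells, so differences between members and other gate cells are descriptions.

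Long-term hematopoietic stem cells sit at the top of blood formation, divide rarely and carry CD150 (Slamf1) at high levels, while CD135 (Flt3) appears on multipotent progenitors. With age such cells become more frequent and raise a set of genes that includes Vwf and Selp, known from platelets. Ncam2 and Ptprm encode cell surface proteins that bind their own kind on neighbouring cells, an adhesion molecule and a receptor tyrosine phosphatase. Kcnb2 encodes a voltage-gated potassium channel, Gkn3 a secreted gastrokine and Insm1 a zinc finger transcription factor of neuroendocrine cells. Matn4, which was not part of the choice but was higher in members of both pools, encodes matrilin-4, an extracellular matrix adaptor.

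The genes lie apart in the genome. In the GRCm38.p6 annotation of RefSeq, Ncam2 spans chr16:81200697-81624290, Ptprm chr17:66666848-67354491, Kcnb2 chr1:15286925-15723751, Gkn3 chr6:87383319-87388935, Insm1 chr2:146221997-146225020 and Matn4 chr2:164389393-164405160. Insm1 and Matn4 share a chromosome but not a neighbourhood. Promoter windows, from 250 bases before to 50 bases after an annotated start, are shown for the 4 of these genes with a window in the table used, to set the promoters of genes detected in the same cells side by side. Capitals mark matches, on either strand, to the letters AGATAA, a motif of GATA factors, or to the letters AGGAAG, a motif of ETS factors; the windows are from RefSeq, GRCm38.p6.

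Ncam2 (chr16:81200447-81200746, plus strand): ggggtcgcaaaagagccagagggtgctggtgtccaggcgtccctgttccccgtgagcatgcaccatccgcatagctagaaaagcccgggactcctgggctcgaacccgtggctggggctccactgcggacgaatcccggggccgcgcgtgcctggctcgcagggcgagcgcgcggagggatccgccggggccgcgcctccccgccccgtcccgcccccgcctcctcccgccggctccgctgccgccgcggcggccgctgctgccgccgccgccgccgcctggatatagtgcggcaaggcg
Ptprm (chr17:67354410-67354709, minus strand): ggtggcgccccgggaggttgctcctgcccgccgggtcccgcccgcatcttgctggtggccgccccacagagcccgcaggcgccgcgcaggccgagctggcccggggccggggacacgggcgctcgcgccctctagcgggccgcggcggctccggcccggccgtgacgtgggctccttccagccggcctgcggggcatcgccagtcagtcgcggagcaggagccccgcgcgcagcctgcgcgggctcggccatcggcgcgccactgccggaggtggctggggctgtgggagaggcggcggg
Gkn3 (chr6:87388886-87389185, minus strand): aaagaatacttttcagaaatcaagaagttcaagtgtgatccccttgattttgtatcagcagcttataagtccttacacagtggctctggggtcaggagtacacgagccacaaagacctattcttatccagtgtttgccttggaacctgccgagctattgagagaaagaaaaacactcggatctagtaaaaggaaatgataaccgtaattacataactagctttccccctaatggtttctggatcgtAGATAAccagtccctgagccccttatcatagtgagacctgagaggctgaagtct
Matn4 (chr2:164404769-164405068, minus strand, the second of 2 annotated windows): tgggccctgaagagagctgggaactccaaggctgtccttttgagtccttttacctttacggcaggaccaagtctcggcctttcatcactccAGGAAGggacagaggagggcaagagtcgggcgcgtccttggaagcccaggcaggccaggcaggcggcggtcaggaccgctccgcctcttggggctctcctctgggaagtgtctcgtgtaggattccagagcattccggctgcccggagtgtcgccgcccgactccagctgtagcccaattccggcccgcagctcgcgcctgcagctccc

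The windows differ in kind. Those of Ncam2 and Ptprm had 75.7% and 80.7% G and C and held 41 and 43 CG pairs, against a median of 52.7% and 7 pairs over 32841 promoters. That of Gkn3 had 42.7% and 5 pairs. The GATA letters occurred once in the Gkn3 window and in 11.2% of all promoters. The ETS letters occurred once in the Matn4 window shown and in 35.4% of all promoters. The letters TGTGGT (RUNX), TGANTCA (AP-1) and TGACAG (MEIS), searched on both strands, occurred in none of these 4 windows nor in the other Matn4 window, and in 16.8%, 7.81% and 19.2% of all promoters. No searched motif was common to these windows.

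Gene depth was similar in members and other gate cells, while tag depth was higher in members. Median tag UMIs per cell were 5205 in members and 4658.5 in other gate cells of the chelator pool, and 5014 and 4178 in the control pool. Median gene UMIs per cell were 14394 in members and 13373 in other gate cells of the chelator pool, and 14120 in members and 12813 in other gate cells of the control pool. Hashtags matched their pool in all 174 chelator and all 209 control members, and no barcode occurred in both matrices. The match also held for 4037 of 4037 chelator and 4025 of 4026 control barcodes before any filter. How barcodes were assigned to a matrix is not stated, and if hashtags did it, the match was fixed in advance. Xist together with Y-linked transcripts, a sign of 2 cells in 1 droplet, was found in 8 of 174 chelator members and 3 of 209 control members, against 22 of 1240 and 14 of 1050 other gate cells; they were kept, and no doublet caller was run. The label of hematopoietic stem cells was checked against their markers: in both pools Procr, Fgd5, Slamf1 and Hoxb5 were at least 1.5-fold higher in members than in other gate cells. Slamf1 encodes CD150, which the gate used, so it is no separate check. Mecom missed that limit in both pools, at log2 differences of 0.51 (chelator) and 0.49 (control). Ctnnal1 missed it in the chelator pool, at 0.34 against 0.66 in the control pool. The Procr call ended with other gate cells matched on CD150, at log2 differences of 0.38 and 0.21, and with cycling cells left out, at 0.35 and 0.20. Hlf stood at 451 CPM (UMIs per 1000000 gene UMIs) in chelator members against 313 CPM in other gate cells, and at 500.3 against 331 CPM in the control pool. Elane, a neutrophil protease, had no UMI in chelator members against 17.3 CPM in other gate cells, and stood at 8.16 against 7.86 CPM in the control pool. Other granulocyte genes were not low: Prtn3, a further neutrophil protease, stood at 849 CPM in chelator members against 606 CPM in other gate cells, and at 903 against 547 CPM in the control pool. Mpo and Ctsg stood at 106 against 21.2 CPM and at 40.2 against 6.31 CPM in the control pool, mostly from 1 member, and at 5.80 against 71.4 CPM and 2.17 against 15.1 CPM in the chelator pool.

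The thresholds of the choice cut the 2 tags differently. The lowest CD150 value among members was 1.81 (centred log ratio, CLR: the log tag count relative to the cell's mean over all tags) and none lay within 0.25 above the threshold. On CD135, 31 members lay within 0.25 below the threshold of -0.43 and 14 cells with 2 of the genes lay within 0.25 above it, the nearest pair at -0.432 and -0.426. Most members, 263 of 383, had exactly 2 of the 5 genes; 84 had 3, 29 had 4 and 7 had all 5. Among other gate cells 633 had exactly 1 gene and 1657 had none.

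Most members were chosen through Kcnb2. The pair Ncam2 and Kcnb2 alone accounted for 108 members (28.2%), and Kcnb2 with Gkn3 for 71 (18.5%). A further 30 members had Ncam2, Kcnb2 and Gkn3. Kcnb2 had a UMI in 86.8% of chelator and 83.7% of control members, and Ncam2 in 60.3% and 62.7%. Gkn3 had a UMI in 56.3% and 44.0%, Insm1 in 20.7% and 31.6%, and Ptprm, the scarcest, in 8.62% and 28.7%. In progenitors with high CD135 and low CD150, which should lack the programme, the share of cells with a UMI was between 0 and 0.625% for each of the 5 genes in each pool, at median depths of 16496 and 14570 UMIs in the chelator and control pool.

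Levels of the 5 genes are given as what the choice fixed. Kcnb2 stood at 214 CPM in chelator members and 19.5 CPM in other gate cells of that pool, and at 282 CPM in control members and 18.4 CPM in other gate cells. Ncam2 stood at 101 and 11.7 CPM in the chelator pool and at 150 and 18.8 CPM in the control pool, members first. Gkn3 stood at 66.3 against 7.80 CPM and at 70.9 against 5.28 CPM in the same order. In each pool these 3 genes were at least 8.01-fold higher in members, and the choice used them. Insm1 was at 24.3 CPM in chelator members against 1.26 CPM in other gate cells, and at 39.5 against 1.29 CPM in the control pool. Ptprm was at 8.69 against 0.685 CPM in the chelator pool and at 28.5 against 0.516 CPM in the control pool.

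**Figure D1:**
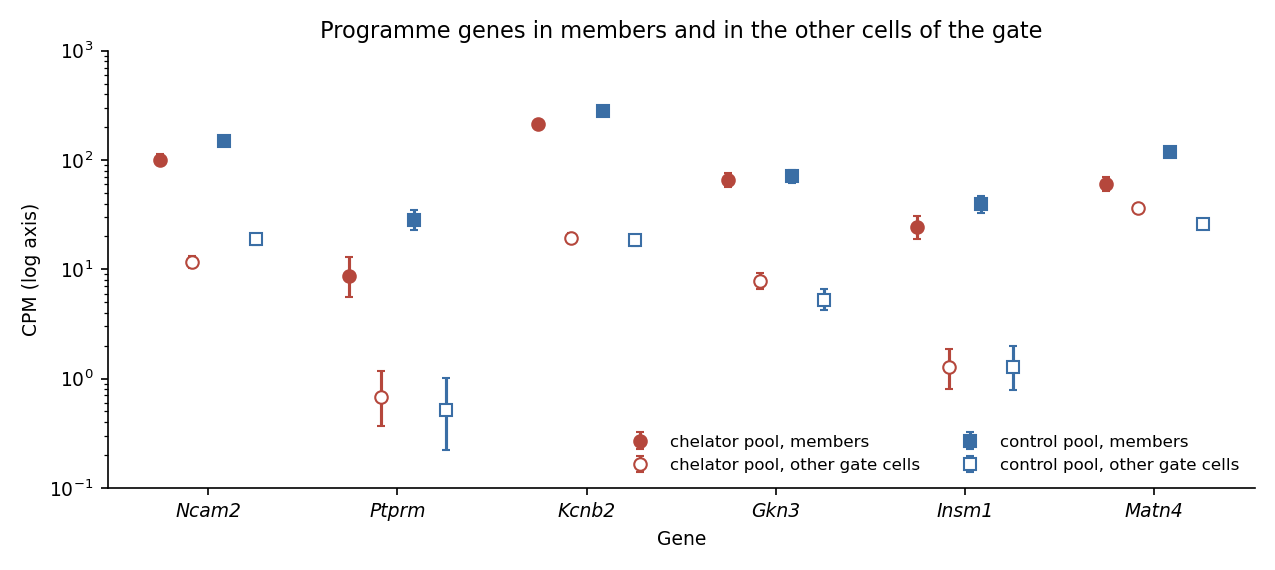
CPM (UMIs per 1000000 gene UMIs) of the 5 genes used in the choice and of Matn4, on a log axis, in members (filled) and in other gate cells (open) of the chelator pool (red circles) and the control pool (blue squares), with 95% Poisson intervals. The 5 genes were fixed to be high in members; Matn4 was not used, and its gap is wider in the control pool (119 against 26.1 CPM) than in the chelator pool (60.5 against 36.3 CPM).

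Each of the 5 genes was also high in cells chosen without it. When gate cells were split by whether at least 2 of the other 4 genes had a UMI, Ptprm stood 6.70-fold higher in the 169 chelator cells so chosen (interval 3.32 to 13.5) and 9.80-fold higher in the 191 control cells (6.39 to 15.2). Insm1 stood 7.57-fold (4.91 to 11.7) and 7.53-fold (5.36 to 10.6) higher. Kcnb2 stood 5.36-fold (4.57 to 6.27) and 6.51-fold (5.78 to 7.34) higher. Ncam2 and Gkn3 were less separated, at 3.50-fold and 2.57-fold in the chelator pool and at 3.58-fold and 4.21-fold in the control pool. The choice of members was made with these results known, and the same RNA counts enter it.

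Pairs of the 6 marker genes were found in the same cell more often than their single frequencies would give. Over 15 pairs, the number of gate cells with both genes was divided by the number expected if they were independent within quintiles of depth. The ratio was 6.14 in the chelator pool and 5.84 in the control pool for Ptprm with Insm1, from 6 and 23 cells. It was 2.24 and 2.09 for Kcnb2 with Gkn3 and 2.17 and 1.72 for Ncam2 with Kcnb2, and lowest for Ncam2 with Matn4, at 1.16 and 1.26. All 15 ratios exceeded 1 in both pools. Since 5 of the 6 genes were taken as a programme from these same cells, the ratios are a description.

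Members crowded at the top of the CD150 scale. Among gate cells ordered by CD150 and cut into quintiles over both pools, members made up 0.372%, 2.50%, 7.67%, 19.0% and 35.1% of chelator cells from the lowest to the highest quintile. The same shares in the control pool were 1.13%, 3.15%, 6.22%, 19.7% and 47.0%. The intervals of the pools overlapped in every quintile, and only narrowly in the top one, at 84 of 239 chelator cells (interval 29.1 to 41.6%) and 139 of 296 control cells (41.2 to 52.8%). Median depth of the quintiles ranged from 13335 to 13899 UMIs in the chelator pool and from 12796 to 13545 UMIs in the control pool.

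Outside the gate the gene pairs were rare. Of 268 kept cells with high CD150 and high CD135, 21 had at least 2 of the 5 genes (7.84%, Clopper-Pearson interval 4.92 to 11.7%). Only 1 of 2782 cells with low CD150 and high CD135 had them. None of 2244 cells with low tags of both kinds had them, which allows a share of up to 0.134% on a limit of 3 counts. The programme thus followed CD150 across the gate and near its edge, at median depths of 12952 to 15263 UMIs in these 3 classes. Of the 21 cells, 14 lay within 0.25 above the CD135 threshold, and their class had a lower share than the gate, at 7.84% against 14.3%.

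Members made up 12.3% of chelator gate cells (174 of 1414, interval 10.6 to 14.1%) and 16.6% of control gate cells (209 of 1259, interval 14.6 to 18.8%). The difference, chelator minus control, was -4.29 percentage points (-7.03 to -1.58). With every cell thinned to 5000 UMIs, the shares were 5.03% in the chelator pool and 8.84% in the control pool, after leaving out 43 and 37 shallower gate cells. The difference did not hold in both sexes. Among cells with Xist the share was 18.5% in the chelator pool and 13.1% in the control pool, a difference of 5.45 points (-0.03 to 11.002). Among cells with Y-linked transcripts it was 10.5% in the chelator pool and 18.4% in the control pool, a difference of -7.87 points (-11.6 to -4.18). After thinning these differences were 1.85 points (-1.78 to 5.63) and -6.01 points (-8.94 to -3.22). Differences between the mice of a pool, their sex included, cannot be told apart from the treatment here.

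**Figure D2:**
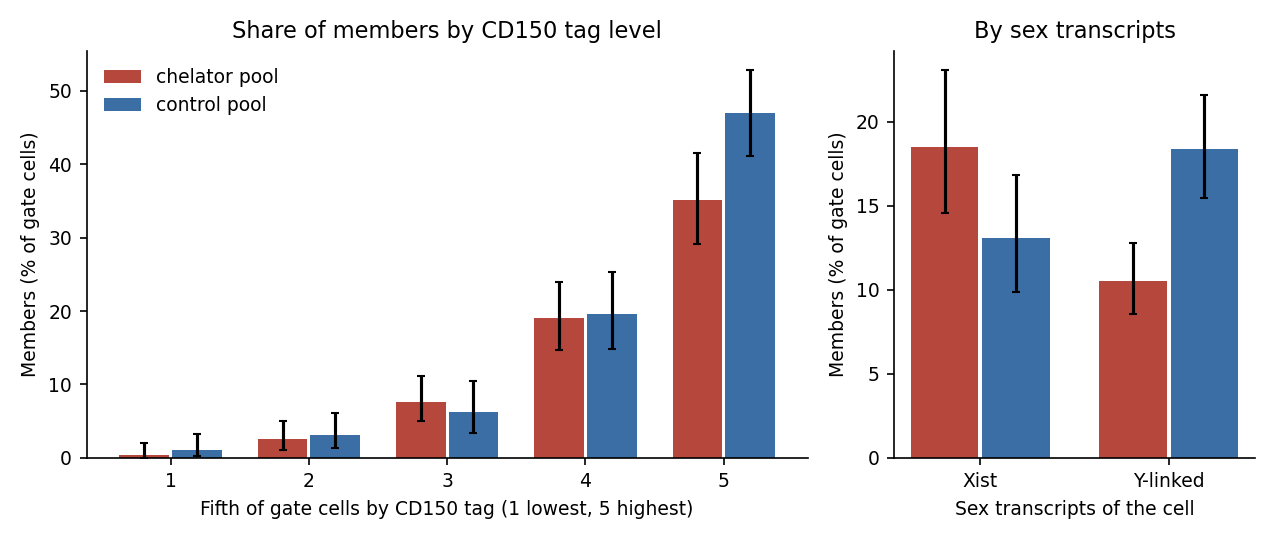
Members as a percentage of gate cells in the chelator pool (red) and the control pool (blue), by quintiles of the CD150 tag over all gate cells (left) and by sex transcripts (right), with 95% Clopper-Pearson intervals. The share climbs with CD150 in both pools to 35.1% and 47.0%, and the order of the pools is opposite between Xist cells and those with Y-linked transcripts. Among Xist cells the intervals of the pools overlap.

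Matn4, the marker left out of the choice, was 1.67-fold higher in members of the chelator pool (interval 1.40 to 1.98), with UMIs in 47.1% of members and 28.0% of other gate cells. In the control pool it was 4.54-fold higher (3.94 to 5.24), with UMIs in 55.0% of members and 21.0% of other gate cells. The intervals of the 2 pools do not overlap. Among gate cells with none, 1, 2 and 3 to 5 of the genes, Matn4 was at 27.3, 60.6, 51.7 and 88.0 CPM in the chelator pool. The same classes of the control pool had 21.5, 37.6, 101 and 148 CPM. In the chelator pool the cells with 1 gene thus had no less Matn4 than those with 2.

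Vwf, Procr and Hlf were higher, and Pf4 lower, in gate cells with more of the genes detected. Vwf, the von Willebrand factor, stood at 67.7, 119, 172 and 209 CPM in chelator cells with none, 1, 2 and 3 to 5 genes, and at 68.9, 109, 183 and 249 CPM in control cells. Procr, the endothelial protein C receptor, stood at 117, 157, 225 and 306 CPM in chelator cells and at 119, 210, 238 and 290 CPM in control cells. Hlf, a stem cell transcription factor, had 296 to 579 CPM over the same classes in the chelator pool and 304 to 617 CPM in the control pool. Pf4, the platelet chemokine, stood at 301, 215, 46.9 and 8.95 CPM in chelator cells and at 391, 137, 16.9 and 9.38 CPM in control cells. Median depth of these classes ran from 13322 to 14394 UMIs in the chelator pool and from 12560 to 14202 UMIs in the control pool.

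**Figure D3:**
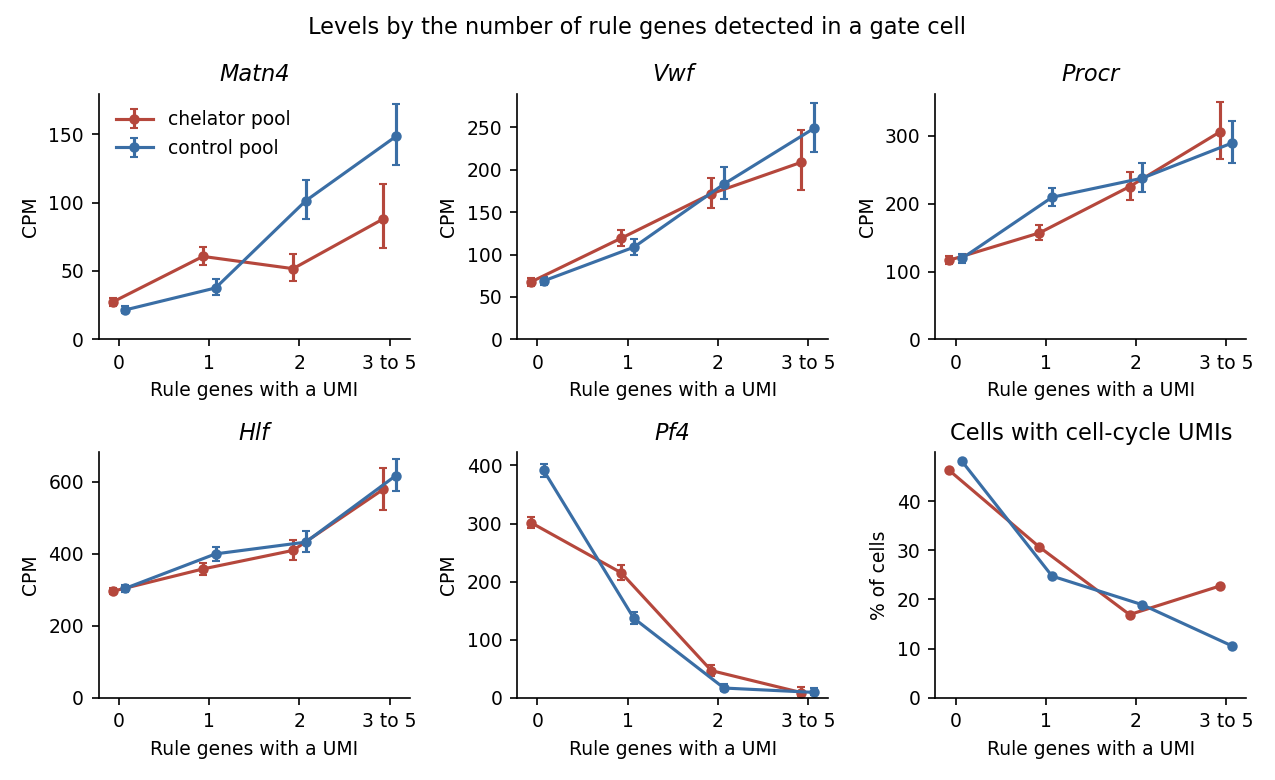
CPM (UMIs per 1000000 gene UMIs) of 5 genes with 95% Poisson intervals, and the percentage of cells with at least 5 cell-cycle UMIs after thinning to 5000 UMIs, in gate cells with none, 1, 2 and 3 to 5 of the 5 genes, for the chelator pool (red) and the control pool (blue). Vwf, Procr and Hlf climb from left to right in both pools, Pf4 falls to 8.95 and 9.38 CPM, and Matn4 climbs at each step in the control pool alone. The CD150 tag, not shown, also rises over these classes in both pools.

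Across all genes, a gene was called where the CPM of members and other gate cells differed at least 1.5-fold in the same direction in both pools, with each pool's interval leaving out 1, among 10140 genes with at least 50 UMIs measured or expected in members. This called 260 genes higher in members (2.56%) and 373 lower (3.68%). The contrast is the one the choice was made on, so these counts describe the members. They also moved with other properties of the cells. With other gate cells weighted to the CD150 distribution of the members, an alternative chosen after seeing the data, 41 genes were called higher and 17 lower; the median log2 difference of the 260 genes was 0.41 in place of 0.93, and that of the 373 genes -0.33 in place of -1.11. With cycling cells left out, 72 and 31 genes were called. Weighting and leaving out cells also lower the counts behind each gene, and the part of CD150 and of the cell cycle in the calls was not tested.

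The highest genes beyond the 5 used in the choice had varied known roles. Ptprn, a phosphatase-like protein of dense-core secretory vesicles, was at 4.35 CPM in chelator members and 0.685 CPM in other gate cells, and at 20.1 CPM in control members and 1.29 CPM in other gate cells. Tacr1, the substance P receptor, was at 9.42 against 2.32 CPM in the chelator pool and at 21.0 against 1.80 CPM in the control pool. Inhba, the activin A subunit, was at 16.7 against 2.85 CPM and at 21.3 against 2.96 CPM. These are small counts: the 3 genes had 12, 26 and 46 UMIs in chelator members. Stxbp6, a SNARE-binding protein, had mean log2 differences over both pools of 2.64, Nlgn1, the synaptic adhesion protein neuroligin-1, of 2.51, Gimap4, a lymphocyte GTPase, of 2.35, and Krt80, a keratin, of 2.34. The next 5 were Ntf3 (neurotrophin-3), Fam189a2, Lgmn (the protease legumain), Khdrbs2 (an RNA-binding protein) and Hoxb9 (a homeobox factor), at 2.22, 2.19, 2.18, 2.15 and 2.03. With other cells matched on CD150 the same quantity was 2.32 for Ptprn, 1.82 for Tacr1 and 1.496 for Inhba. It was 1.29 for Stxbp6, 1.55 for Nlgn1, 1.25 for Gimap4 and 1.65 for Krt80. For Ntf3, Fam189a2, Lgmn, Khdrbs2 and Hoxb9 it was 0.92, 1.44, 1.26, 0.69 and 0.93. The interval then included 0 in both pools for Khdrbs2, in the control pool for Ntf3, and in the chelator pool for Lgmn and Hoxb9. The matched value was 0.32 for Matn4 and 0.50 for Sbspon, and Matn4 in the chelator pool was then at -0.27 (interval -0.55 to 0.00).

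No single cell carried these genes. Ptprn was spread over 12 chelator members with 1 UMI each and 48 control members with at most 5 UMIs. Stxbp6 was spread over 33 chelator and 58 control members, with at most 3 and 8 UMIs in a cell. Ntf3 was the exception, with 12 of its 32 chelator UMIs in 1 cell. For Nlgn1, the 5 highest cells of each pool held 10 of 16 chelator and 22 of 43 control UMIs. Of these 43, 39 were in members with Y-linked transcripts and 0 in members with Xist. Krt80 had 1 chelator and 2 control UMIs in members with Xist, against 12 and 25 in members with Y-linked transcripts.

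Among the lowest genes were several known from platelets and red cells. Pf4 stood at 37.7 CPM in chelator members against 278 CPM in other gate cells, and at 14.1 against 319 CPM in the control pool; 58 of its 104 UMIs in chelator members were in 1 cell. Gata1, the erythroid and megakaryocytic transcription factor, stood at 4.35 against 31.4 CPM and at 6.59 against 35.2 CPM. Mfsd2b, a lipid exporter of red cells and platelets, stood at 3.62 against 30.3 CPM and at 5.33 against 36.2 CPM. Jchain, of plasma cells, had 5 UMIs in chelator and 1 UMI in control members, against 106 and 37.1 CPM in other gate cells of these pools. A Jchain UMI was found in 2.87% of chelator members and 1.21% of other gate cells, and in 0.478% of control members and 1.05% of other gate cells, so the lower CPM rests on a few other gate cells with many UMIs. Car1, a carbonic anhydrase of red cells, had 1 and 27 UMIs in chelator and control members, and 26 of the 27 were in 1 cell. A Car1 UMI was found in 1.77% of chelator and 2.19% of control other gate cells. Ly6c2, a monocyte surface gene, had no UMI in chelator members, at least 3.59-fold lower than in other gate cells on a floor of 3 UMIs over the group, and 3 UMIs in control members. Its UMIs were found in only 1.05% of chelator and 0.952% of control other gate cells, and in 1.44% of control members. The lower CPM of Ly6c2 thus rests on a few other gate cells as well. F2rl2, Clec4d, Fgf3, Hist1h2bh, Slpi and Esco2 completed the lowest 12, with mean log2 differences between -3.34 and -2.39. Slpi UMIs were found in 8.13% of control members and 5.14% of other gate cells, against the direction of its CPM, and in 5.17% and 6.29% in the chelator pool. With other gate cells matched on CD150, mean log2 differences were -2.13 for Pf4, -1.09 for Gata1 and -1.40 for Mfsd2b. Without matching they were -3.69, -2.64 and -2.92. The matched interval included 0 in the control pool for F2rl2, Clec4d, Hist1h2bh and Esco2, and in the chelator pool for Fgf3 and Ly6c2. With cycling cells left out, the interval of Gata1 included 0 in both pools.

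Genes near the markers were examined because neighbours can share reads or activity. Over all genes 2.56% were called higher and 3.68% lower. Of 9 measured genes within 1 Mb of Kcnb2, 2 were called higher, Sbspon and Rdh10, and none lower. Sbspon, a somatomedin-B and thrombospondin domain gene at chr1:15853862-15892722, had 113 CPM in chelator members and 35.8 CPM in other gate cells, and 130 against 32.6 CPM in the control pool. Rdh10, a retinol dehydrogenase at chr1:16105882-16132550, was higher by 1.74 and 1.65 on the log2 scale in the chelator and control pool. With other gate cells matched on CD150, Rdh10 was at 0.67 and 0.57 and Sbspon at 0.45 and 0.55. Terf1, which lies between Kcnb2 and Sbspon, was at 0.55 and 0.52, under the 1.5-fold limit. Of 28 measured neighbours of Matn4, 1 was called higher and 2, Slpi and Ube2c, lower. The higher one, Rbpjl, at chr2:164403081-164415448, overlaps Matn4 and stood at 1.17 and 2.02, so reads of the 2 genes may be split in an uncertain way. None of the 27, 10 and 7 measured neighbours of Gkn3, Ptprm and Insm1 was called, and Ncam2 had no measured neighbour.

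Gene lists from the literature of stem cells, chosen with earlier results of these data known, were counted against the 2.56% and 3.68% over all genes, whose median log2 difference was -0.02. Of 28 stem cell identity genes, 9 were called higher and none lower, with a median of 0.49. Fgd5, a guanine nucleotide exchange factor used to mark stem cells, stood at 88.0 CPM in chelator members and 39.5 CPM in other gate cells, and at 83.4 against 41.0 CPM in the control pool. Procr stood at 245 against 128 CPM and at 257 against 145 CPM. Mllt3, a regulator of stem cell self-renewal, and Slamf1, which encodes CD150, had mean log2 differences of 0.92 and 0.90.

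Genes known to rise in aged stem cells were the longest list and had most calls by number, though not by share. Of the 20 S phase and the 20 G2 and M phase genes, 16 each were called, a larger share. Of its 37 measured genes (of 40), 20 were called higher and 2 lower, with a median of 0.77. Vwf stood at 181 CPM in chelator members against 81.6 CPM in other gate cells, and at 207 against 80.2 CPM in the control pool. With other gate cells matched on CD150 its mean log2 difference was 0.60, against 1.26 without matching. Jam2, a junctional adhesion molecule, stood at 93.8 against 36.8 CPM and at 99.8 against 37.5 CPM. Dnm3, a dynamin, stood at 49.3 against 12.8 CPM and at 49.9 against 13.8 CPM. Clu (clusterin) and Neo1 (neogenin, a guidance receptor) had mean log2 differences of 1.17 and 1.54. Plek, a platelet kinase substrate, was 1 of the 2 genes lower, at 36.2 against 101 CPM and at 29.8 against 110 CPM.

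Platelet genes were split. Of 17 measured megakaryocyte and platelet genes, 8 were called lower and 3 higher. Itga2b, the CD41 integrin chain, stood at 60.9 CPM in chelator members and 103 CPM in other gate cells, and at 28.5 against 108 CPM in the control pool. Gp5, a platelet glycoprotein, stood at 11.2 against 33.9 CPM and at 5.96 against 34.5 CPM. Vwf, Selp (P-selectin) and Itgb3 (the CD61 integrin chain) were the 3 higher, at mean log2 differences of 1.26, 0.82 and 0.67. Of 10 measured erythroid genes 3 were lower (Car1, Klf1 and Hbb-bs) and none higher. Of 10 granulocyte-monocyte genes 2 were lower, Nkg7 and Ly6c2, and Ly6c2 rests on a few other gate cells.

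Cell-cycle transcripts were low in members. Of 20 S phase genes 16 were called lower, with a median of -1.13, and of 20 G2 and M phase genes 16 were called lower, with a median of -1.21. Birc5 (survivin) stood at 27.2 CPM in chelator members and 85.2 CPM in other gate cells, and at 32.6 against 90.7 CPM in the control pool. Cells with at least 5 UMIs of these lists among 5000 thinned UMIs were 18.4% of chelator and 15.9% of control members, against 42.0% and 41.1% of other gate cells. With other gate cells matched on CD150, Mki67, a proliferation marker, no longer stood lower in members: its log2 difference was -0.01 in the chelator pool (-0.21 to 0.18) and 0.94 in the control pool (0.76 to 1.11), against -0.66 and -0.74 without matching. Cdkn1c, the cyclin-dependent kinase inhibitor p57, was higher at 99.97 against 62.7 CPM and at 117 against 65.0 CPM.

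Of the remaining lists, 2 of 14 interferon genes (Rtp4 and Ifi44) and 3 of 19 adhesion receptors (Itgb3, Jam2 and Selp) were higher. Of 7 measured lymphoid genes 1 (Notch1) was higher and 1 lower. The lymphoid median was -0.82, with 5 of the 7 below 0. None of 6 MHC class II and none of 13 TGF-beta and BMP genes was called. Of 11 paralogs of the 5 genes 2 were measured, and Ptprk, a related phosphatase, was called higher at a mean log2 difference of 0.91, while Ncam1 was at 0.22. Of 20 neuroendocrine and neural adhesion genes 4 were measured and 1, Nlgn1, was called; 7 of the 20 had no UMI in members. Of 24 potassium channel genes 4 were measured and 1, Kcna3, was called lower. Iron genes, of interest for the treatment, had 1 of 17 called, Steap3, a ferrireductase, at -2.30. None of 16 immediate-early and none of 10 heat shock genes was called in either direction. For other cell types, the summed CPM of 14 endothelial and stromal genes was 91.6 in chelator members and 69.9 in other gate cells, and 79.4 and 68.4 in the control pool, with 3 measured, 1 called higher (Kdr) and 2 genes at 0 in members. That of 16 T, natural killer and innate lymphoid genes was 223 against 196 and 217 against 219 CPM. That of 9 B and plasma cell genes was 39.8 against 145 and 37.6 against 83.4 CPM, and of 10 mast cell and basophil genes 6.16 against 19.0 and 22.6 against 24.6 CPM. Of these lists, 7, 2 and 5 genes had no UMI in members for T, B and mast cells in that order, and their part in the results was not tested.

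Surface tags set members apart on the protein side. Tags did not enter the choice between members and other gate cells, though the gate itself used CD150 and CD135. CD150 had a median of 286 UMIs in chelator members and 149 in other gate cells, and of 325 and 128 in the control pool. Its mean CLR was 3.36 ± 0.36 in chelator members and 2.74 ± 0.58 in other gate cells, and 3.51 ± 0.38 and 2.72 ± 0.61 in the control pool (SD over cells). Of the tags other than isotype controls and the gate's own, 15 lay above the range of the 9 isotype controls in both pools (13.0%) and 13 below it (11.3%). The 15 included NK-1.1, CD127, CD138 and TCR Vb8.1/8.2, at medians of 5 to 14 UMIs in members. The isotype controls had medians of 1 to 4 UMIs in members, and their range was not checked at higher counts.

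CD38, an enzyme found on mouse long-term stem cells, led the higher tags at differences of 0.48 and 0.54 in the chelator and control pool. CD54 (ICAM-1) followed at 0.33 and 0.36, CD55 (decay-accelerating factor) at 0.28 and 0.38, Ly-49A, a natural killer receptor, at 0.25 and 0.24, and CD31 (PECAM-1) at 0.12 and 0.34. CD49b, the integrin alpha-2 chain, was lowest at -0.71 and -0.79, followed by I-A/I-E (MHC class II) at -0.49 and -0.70 and CD357 (the TNF receptor GITR) at -0.46 and -0.71. CD86, CD27, CD371 and CD48 lay at -0.49, -0.34, -0.34 and -0.35 in the chelator pool and at -0.55, -0.61, -0.37 and -0.32 in the control pool. The CD38 tag moved with its RNA, at 31.2 against 16.97 CPM in the chelator pool and 37.96 against 14.8 CPM in the control pool.

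Some tags of stem and progenitor cells showed little or opposite difference. CD41 stood at 0.09 in the chelator pool and -0.14 in the control pool, Sca-1 at 0.22 and -0.06, and c-Kit at -0.04 and 0.14. CD62P, the P-selectin protein, was higher in control members by 0.28 and in chelator members by 0.06, although Selp RNA was higher in both. CD34 was lower by 0.14 and 0.09, and CD135 by 0.10 and 0.09. With other gate cells matched on CD150, differences averaged over pools were 0.14 for CD38 and -0.18 for CD49b, and stood at -0.33 for CD27 and 0.17 for CD31. CD371 then reversed to 0.032.

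**Figure D4:**
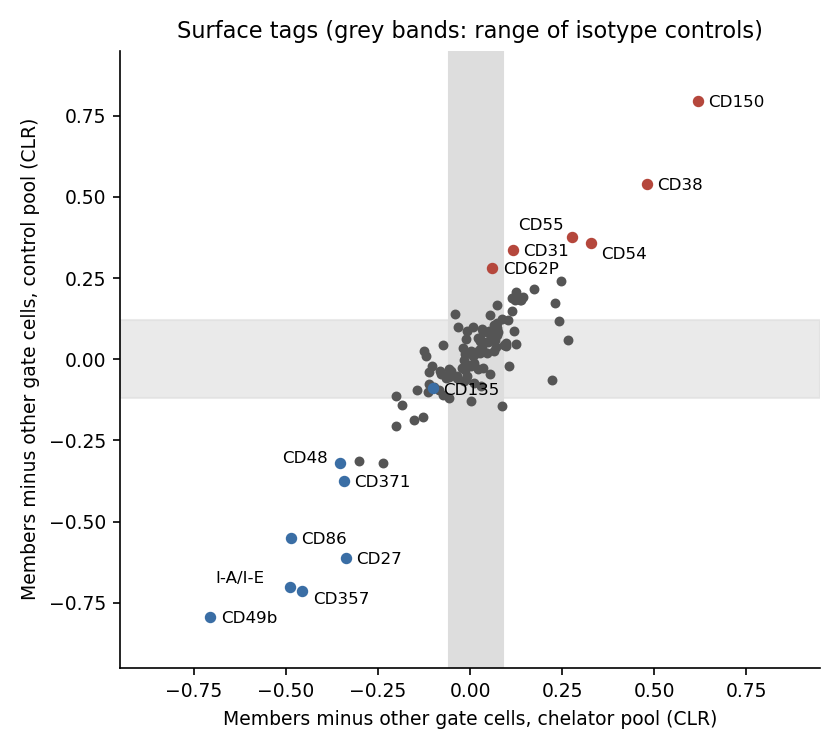
Difference in mean centred log ratio between members and other gate cells for each surface tag, in the chelator pool (horizontal) and the control pool (vertical), with grey bands for the range of the isotype controls and labelled tags in red or blue. CD150 and CD38 lie at the upper right and CD49b, at -0.71 and -0.79, at the lower left.

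Within members, Ptprm, Insm1 and Matn4 were lower in the chelator pool. Of 9863 genes with at least 50 UMIs over both pools' members, 221 were at least 1.5-fold higher in chelator members with an interval leaving out 1 (2.24%) and 130 were lower (1.32%). Ptprm was at 8.69 CPM in chelator members and 28.5 CPM in control members, a log2 difference of -1.72 (-2.43 to -1.05), Insm1 at 24.3 and 39.5 CPM, -0.70 (-1.15 to -0.26), and Matn4 at 60.5 and 119 CPM, -0.97 (-1.24 to -0.70). Ncam2 and Kcnb2 lay at -0.58 (-0.80 to -0.36) and -0.39 (-0.55 to -0.24), and the interval of Gkn3 included 0 (-0.39 to 0.19). In other gate cells Matn4 went the other way, at 0.48. The 5 genes also chose the members, so their levels among members are a description.

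The Ptprm difference was largest in members with Y-linked transcripts, though strata were not tested against each other. Among members with Y-linked transcripts, 7 of 90 chelator cells and 52 of 118 control cells had a Ptprm UMI. Among members with Xist it was 4 of 63 chelator cells and 0 of 51 control cells, which allows a share of up to 5.88% on a limit of 3 counts. Among members of neither class it was 4 of 21 chelator cells and 8 of 40 control cells. Insm1 was found in 24.4% of chelator and 38.1% of control members with Y-linked transcripts, and in 14.3% and 13.7% of members with Xist. Matn4 had 72.9 CPM in chelator and 159 CPM in control members with Y-linked transcripts, and 43.4 and 52.9 CPM in members with Xist. Since mice cannot be told apart within a pool, it is not known over how many animals these cells are spread.

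**Figure D5:**
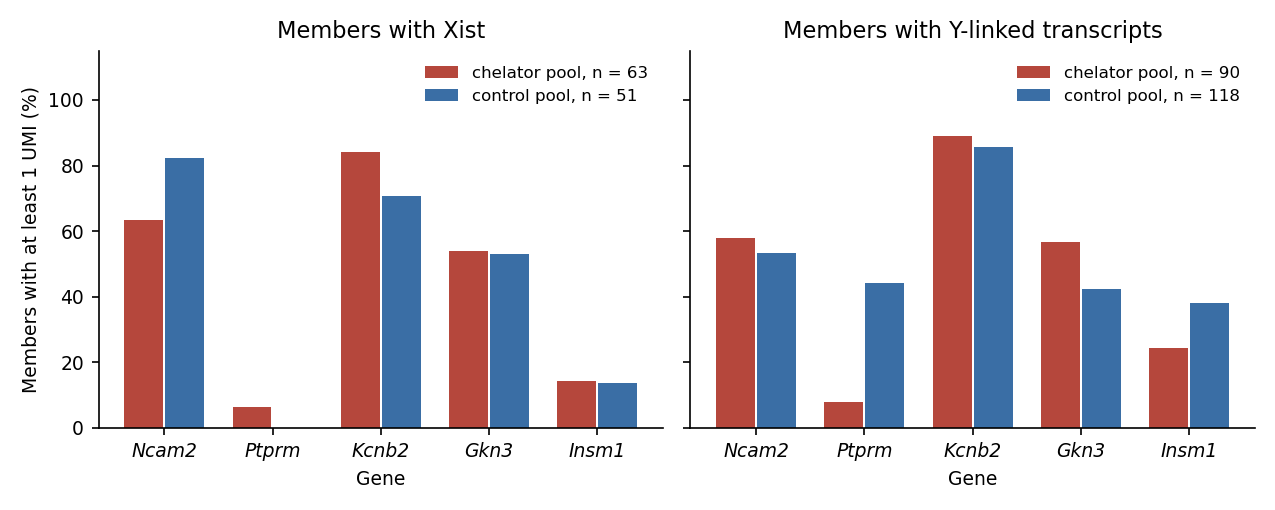
Percentage of members with at least 1 UMI of each of the 5 genes, in members with Xist (left) and with Y-linked transcripts (right), for the chelator pool (red) and the control pool (blue). Ptprm reaches 44.1% in control members with Y-linked transcripts and 7.78%, 6.35% and 0% in the other 3 bars.

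Control members with a Ptprm UMI differed from those without in further genes, a split chosen after its values were seen. Of the 60 control members with Ptprm, 52 had Y-linked transcripts and 0 had Xist. The split can therefore not be told apart from sex or from single mice of the pool. Ehd2, a membrane-trafficking ATPase, was at 42.9 CPM in the 60 control members with Ptprm and at 14.2 CPM in the 149 without. Ptprn was at 33.3 against 14.6 CPM, Tacr1 at 36.5 against 14.6 CPM and Matn4 at 173 against 96.2 CPM. Hlf was at 664 against 433 CPM. Gkn3 was not higher, at 58.0 against 76.2 CPM. Control members with Y-linked transcripts had 28.7 CPM of Ehd2, 27.0 CPM of Ptprn and 159 CPM of Matn4. Those with Xist had 8.82, 5.04 and 52.9 CPM. In the chelator pool, with 15 members with Ptprm, Matn4 stood at 138 against 53.6 CPM and Hlf at 739 against 425 CPM.

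The other genes lowest in chelator members included 2 that rested on 1 cell. Ptprn was at 4.35 CPM in chelator and 20.1 CPM in control members, a log2 difference of -2.21 (-3.23 to -1.30), with 48 control cells carrying it. Ehd2 was at 8.33 and 22.6 CPM, Il4, the cytokine interleukin-4, at 4.35 and 13.5 CPM, and Tchp, a keratin-binding protein, at 5.07 and 12.9 CPM. Mpo and Ctsg, granule enzymes of neutrophil precursors, came out at -4.19 and -4.21, but 268 of 338 Mpo UMIs and 116 of 128 Ctsg UMIs of control members were in a single cell. Cd52, a lymphocyte surface gene, was at 3.98 and 13.8 CPM, with 12 of 44 control UMIs in 1 cell.

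The genes highest in chelator members were of several kinds. Fap, a membrane serine protease, was at 17.02 CPM in chelator and 4.39 CPM in control members, a log2 difference of 1.95 (1.07 to 2.93). Jcad, a junctional protein, was at 17.02 and 5.33 CPM, Jag2, a Notch ligand, at 14.1 and 4.71 CPM, and Exoc8, of the exocyst, at 13.8 and 4.71 CPM. Fosb, an AP-1 subunit, was at 101 and 34.2 CPM, and its difference of 1.57 compares with 0.69 in other gate cells. Ncapg2, of condensin, and Hist1h2ak, a histone gene, were at 17.7 and 5.65 CPM and at 21.0 and 7.21 CPM, with 13 of 49 and 32 of 58 chelator UMIs in 1 cell each. Pf4 was at 37.7 and 14.1 CPM, with 58 of its 104 chelator UMIs in 1 cell.

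The lists were counted between chelator and control members against 2.24% higher and 1.32% lower over all genes. None of 28 stem cell identity genes was called between chelator and control members, and the median was 0.00. Of 37 ageing genes 1, Bmpr1a, was higher. Of 16 immediate-early genes 6 were higher in chelator members, among them Fos at 845 and 454 CPM and Egr1 at 845 and 514 CPM; in other gate cells Fos was at 707 and 434 CPM and Egr1 at 623 and 451 CPM. Of 6 MHC class II genes 3 were higher, H2-Aa at 101 and 61.8 CPM, H2-Eb1 at 57.6 and 32.0 CPM and Cd74 at 210 and 128 CPM. Of 19 measured G2 and M phase genes 11 were lower, such as Ube2c at 40.6 and 72.8 CPM and Cenpa at 19.9 and 43.0 CPM, while 2 of 18 S phase genes were higher. Cycling cells made up 18.4% of chelator and 15.9% of control members, and their part in this was not tested. Of 16 megakaryocyte and platelet genes 4 were higher (Itga2b, Pf4, Gp9 and Gp5) and 1 lower (Gp1bb). Of 8 granulocyte-monocyte genes 3 were lower, Mpo and Ctsg, which rest on 1 cell, and Nkg7. None of 13 measured iron genes and none of 9 heat shock genes was called.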

How the data were processed

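Per the labels' protocols, lineage-depleted marrow was stained with sort antibodies, a surface tag panel and 1 hashtag per condition, LSK cells were sorted and both pools were loaded together on a 10x Genomics kit for transcript starts. The authors deposited counts of UMIs for each feature in each cell, without normalization, in a matrix per condition, with 32285 genes and 126 tags, 9 of them isotype controls. The builds and tools named are mm10, Seurat 4.3.0 and Cell Ranger 7.0.0, per the submitters' processing notes; the matrix header names Cell Ranger 7.0.1. The sources used here do not say how barcodes were filtered or assigned. A matrix's own name gave its condition, and the hashtag that the labels give for that condition was compared with it. This comparison could not fail if the matrices were made by hashtag.

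UMIs were summed over the cells of a class in a pool and divided by total gene UMIs (CPM). Intervals are exact: conditional binomial for ratios, Poisson for sums and Clopper-Pearson for shares, which are combined for a difference. Median total UMIs per kept cell were 14456 in the chelator pool and 13705 in the control pool. A cell was classed by Xist at 2 UMIs or more if Y-linked UMIs were absent, and by 4 Y-linked genes at 1 UMI or more if Xist was absent. Motifs and coordinates used RefSeq tables of GRCm38.p6, which gave a window for 4 of 8 genes looked up and a location for 26335 genes. The calls were tested on simulated data with known folds, drawn as independent Poisson sums per pool. That simulation holds no clustering of UMIs in single cells, so it does not cover calls that rest on a few cells. Python 3.11.15, numpy 2.4.6, scipy 1.17.1 and scikit-learn 1.9.0 were used.

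Named genes are the 6 markers, the 12 highest and 12 lowest called between members and other gate cells, the 8 highest and 8 lowest called between pools within members, the 6 highest and 6 lowest tags with a fixed set of stem cell tags, and up to 4 genes per list; the 5 genes of the choice count among the 12 highest, and genes past these limits were named after their values were seen. Mitochondrial, immunoglobulin segment, T-cell receptor, pseudogene, Gm-numbered and Rik genes were not named. Members and the 25 lists were chosen with earlier results of these data known. In all 18 alternatives were planned and 3 added after seeing the data.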

Additional observations from a re-analysis of the deposited data

Results flagged for a closer look

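The difference in the share of members between the pools had opposite signs in the 2 sexes, but only 1 interval left out 0. Chelator minus control was 5.45 percentage points (-0.03 to 11.002) among cells with Xist, and 1.85 points (-1.78 to 5.63) after thinning. Among cells with Y-linked transcripts it was -7.87 points (-11.6 to -4.18). The difference between the sexes was not tested, since each value is 1 pool against 1 pool.

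Within members, 2 named genes went opposite ways between cells with Xist and cells with Y-linked transcripts, each interval leaving out 0, and neither difference was tested. Kcnb2 was at 0.39 (0.06 to 0.71) in cells with Xist and at -0.68 (-0.88 to -0.48) in cells with Y-linked transcripts, as log2 of chelator over control. Pf4 was at -1.68 (-3.05 to -0.46) and 4.53 (3.26 to 6.19), from 8 chelator and 22 control UMIs in cells with Xist and from 92 and 5 UMIs in cells with Y-linked transcripts, where 58 of the 92 were in 1 cell.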

How the results depend on the processing

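Of 101 recomputed counts and shares, 78 stayed within 1.5 times the count or within the interval of the main value. The share difference was -7.87 points where Y-linked transcripts were present and 5.45 points where Xist was, the latter with an interval that includes 0 (-0.03 to 11.002). Genes higher and lower in members (260 and 373) were 73 and 111 after thinning to 5000 UMIs, 78 and 147 at 2-fold, 106 and 159 with at least 200 UMIs, 72 and 31 in non-cycling cells, and 41 and 17 with other cells matched on CD150. Higher genes were 168 with at least 3 of the 5 genes and 165 in cells with at most 1 Pf4 UMI, and lower genes were 220 in cells with Y-linked transcripts. Genes higher and lower in chelator members (221 and 130) were 70 and 82 after thinning, 29 and 36 at 2-fold, and 30 and 21 with at least 200 UMIs; higher genes were 114 with at least 1 of the 5 genes and 121 in cells with Xist. Fewer cells or UMIs enter most of these; beyond that the cause was not tested.

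Of 1072 single gene and tag values, 1053 kept their direction. Reversals between pools were Mpo at 0.65 after thinning and 0.062 with at least 1 gene, Cd52 at 0.46 with at least 1 gene, Ncapg2 at -0.41, Pf4 at -0.067 and Ctsg at 0.81 with at least 3 genes, and Ctsg at 0.14 in CD48-negative cells, 0.33 in cells with Y-linked transcripts and 0.67 in non-cycling cells, where Hist1h2ak was at -0.49. In cells with Xist they were Kcnb2 at 0.39, Insm1 at 0.45, Fosb at -0.060, Pf4 at -1.68, Ctsg at 0.37, Ptprn at 0.10 and Ehd2 at 0.43; Ptprm, with 5 chelator and 0 control UMIs there, has no finite ratio and also lay the other way. Between members and other gate cells, Car1 was at 0.94 in non-cycling cells and the CD371 tag at 0.032 with other cells matched on CD150, where Mki67, outside these values, also turned to a mean of 0.46. Depth matching gives no value for the pools within members, and CD150 matching none for the share. No paired analysis was possible because each condition is 1 pool.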
